A study of Mus musculus with 2 samples.

Results

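Metallothionein expression in erythroid cells of mouse bone marrow was described through 4 genes of the 27998 in the gene tables. These were the metallothioneins Mt1 and Mt2, the transcription factor gene Mtf1 and the zinc exporter gene Slc30a1. Mt2 was chosen by its measured level, as one of the leading genes of the erythroid cells in the marrow library, and the other 3 were added by name as its paralog, its regulator and a zinc exporter. The contrast of those cells with the other marrow cells is therefore given as a description. Single-cell RNA was measured with the 10x Genomics 3′ v2 kit in 2 libraries. The marrow library was made from CD45+ CD3- Ly6G- cells of naive C57BL/6 mice. The other library, Car1-GFP, held CD45+ GFP-expressing cells of naive Car1-GFP reporter mice, a line on the C57BL/6 background in which GFP marks cells that use Car1, a carbonic anhydrase gene active in early erythroid cells. Each library pooled the marrow of 3 mice, and 10000 sorted cells were loaded. Every group is thus 1 library with no replicate. No comparison has a test, and each 95% interval covers counting error only.

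Metallothioneins are small, cysteine-rich proteins that bind zinc and copper and also bind cadmium. Their genes are switched on by Mtf1, a zinc finger factor that binds metal response elements in promoters when free zinc is high, and glucocorticoids and cell stress can raise them too. Slc30a1, also called ZnT1, moves zinc out of the cell across the plasma membrane and is itself a target of Mtf1. Erythroid cells need zinc for carbonic anhydrase and for GATA and Klf factors while they take up large amounts of iron for haem.

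Mt1 and Mt2 lie side by side on chromosome 8. In the GENCODE M21 annotation of mm10, Mt2 (ENSMUSG00000031762) spans chr8:94172664-94173568 and Mt1 (ENSMUSG00000031765) spans chr8:94179082-94180327, both on the plus strand with 3 exons, and 5513 bases separate them. Their coding transcripts were 72.0% identical over the aligned bases and 67.6% identical over the last 150 bases. The longest run they shared was 20 bases, shorter than the 98-base reads, so reads of this length differ between them. Mtf1 (ENSMUSG00000028890, chr4:124802104-124849800) has 12 exons and Slc30a1 (ENSMUSG00000037434, chr1:191906767-191913247) has 2.

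The promoters are shown because the windows of the 2 metallothionein genes hold different numbers of matches to the element that Mtf1 binds. Matches outside the windows were not counted. Mt1 has 3 annotated transcripts and Mt2 has 2, and any other start was not examined, so the counts describe these windows only. Each window runs from 250 bases before to 30 bases from the RefSeq start on GRCm38.p6, plus strand (the RefSeq start of Mt2 lies upstream of its GENCODE start), and capitals mark the core letters TGCACNC or TGCGCNC on either strand (each start was counted, overlaps included). The windows lie at chr8:94178839-94179118 for Mt1, chr8:94172368-94172647 for Mt2 and chr1:191906531-191906810 for Slc30a1.
Mt1: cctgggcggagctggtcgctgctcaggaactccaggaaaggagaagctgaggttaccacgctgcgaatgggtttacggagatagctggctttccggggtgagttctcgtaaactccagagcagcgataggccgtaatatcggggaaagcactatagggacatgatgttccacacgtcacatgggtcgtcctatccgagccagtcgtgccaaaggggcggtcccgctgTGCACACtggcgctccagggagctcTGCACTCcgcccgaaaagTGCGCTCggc
Mt2: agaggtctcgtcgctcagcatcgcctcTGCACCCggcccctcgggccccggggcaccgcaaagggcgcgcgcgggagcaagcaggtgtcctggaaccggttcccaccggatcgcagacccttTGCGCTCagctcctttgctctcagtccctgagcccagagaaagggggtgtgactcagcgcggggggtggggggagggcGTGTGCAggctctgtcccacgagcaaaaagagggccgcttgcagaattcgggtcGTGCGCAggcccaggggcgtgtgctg
Slc30a1: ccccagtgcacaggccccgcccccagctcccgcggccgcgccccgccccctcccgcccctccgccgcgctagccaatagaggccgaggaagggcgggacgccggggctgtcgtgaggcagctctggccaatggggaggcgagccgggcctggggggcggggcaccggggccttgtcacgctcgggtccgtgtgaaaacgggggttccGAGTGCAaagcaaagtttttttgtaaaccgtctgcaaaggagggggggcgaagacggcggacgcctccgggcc

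The Mt1 window held 3 matches, all on the plus strand, with first bases at -23, 3 and 21 from the RefSeq start. The Mt2 window held 4 matches, 2 on each strand, at -223, -128, -50 and 5. Slc30a1 held 1, on the minus strand at -43, and the Mtf1 window held no match. Of 32851 RefSeq promoter windows of this length, 24.1% held at least 1 match, 1.73% at least 3 and 0.405% at least 4. These letters are a description of the windows and were not measured as bound sites.

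Filtering left 6268 marrow cells with 8303633 UMIs (unique molecular identifiers, each standing for 1 captured transcript) and 2400 Car1-GFP cells with 42795219 UMIs. The median was 1031 UMIs per cell in marrow and 15512.5 in Car1-GFP, so a level resting on few UMIs is far less precise in marrow. Levels are UMIs scaled to a total of 1000000 UMIs (CPM), a 3′ count that is not scaled by transcript length. Car1 checked the reporter sort over whole libraries only: it stood at 593.7 CPM in the Car1-GFP library and at 102 CPM in marrow. Between erythroid cells binned by the globin percent of their UMIs, Car1 was close. Its log2 ratio of Car1-GFP over marrow was 0.14 at 0.1 to 1%, -0.02 at 1 to 5% and -0.05 at 5% or more. Cells were clustered without the metal-handling and globin genes and named from marker lists, and a name such as erythroid here means erythroid-like by those markers. All 14 erythroid markers had UMIs in both libraries, at a summed 4619 CPM in the 262 erythroid cells of marrow, 178 CPM in the other marrow cells and 6845 CPM in the 1966 erythroid cells of Car1-GFP. Another 434 Car1-GFP cells, for which erythroid was also the best class, stayed unnamed because their leading genes included markers of other classes and none of its own. The 1985 neutrophil cells of marrow had Ly6g among the leading genes of 1 cluster although the sort excluded Ly6G. The libraries shared 14 barcodes, 13 of them among the kept cells.

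As clustered here, without the metal-handling and globin genes, Mt2 was nearly confined to the erythroid cells within the marrow library. Its contrast with the other cells depended on this clustering, as given below. It stood at 415 CPM in the erythroid class (95% interval 371 to 462, 331 UMIs) and at 25.3 CPM in stem and multipotent progenitors (15.2 to 39.4, 19 UMIs). No other class had more than 8 Mt2 UMIs. The levels were 4.61 CPM in granulocyte-monocyte progenitors, 3.66 CPM in monocytes and 2.61 CPM in neutrophils. The NK and conventional dendritic classes had no Mt2 UMI, which allows up to 24.5 and 19.4 CPM when 3 counts are taken as the floor. The erythroid cells held 88.5% of all marrow Mt2 UMIs (84.8% to 91.6%) with 9.61% of the library's UMIs.

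Mt1 was high in 2 marrow classes rather than in 1. It stood at 771 CPM in erythroid cells (711 to 834, 615 UMIs) and at 408 CPM in granulocyte-monocyte progenitors (378 to 439, 708 UMIs). Stem and multipotent progenitors followed at 105 CPM (83.1 to 131). The intervals of these 3 classes do not overlap. Below them, NK and innate lymphoid cells stood at 65.4 CPM, basophil or mast cells at 47.7 CPM, neutrophils at 40.4 CPM, monocytes at 36.6 CPM and conventional dendritic cells at 25.8 CPM, and the interval of each overlaps that of its neighbour in this order. Plasmacytoid dendritic cells had the lowest level, 5.7 CPM from 2 UMIs. Erythroid cells held 38.8% of the marrow Mt1 UMIs and granulocyte-monocyte progenitors 44.6%.

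**Figure D1:**
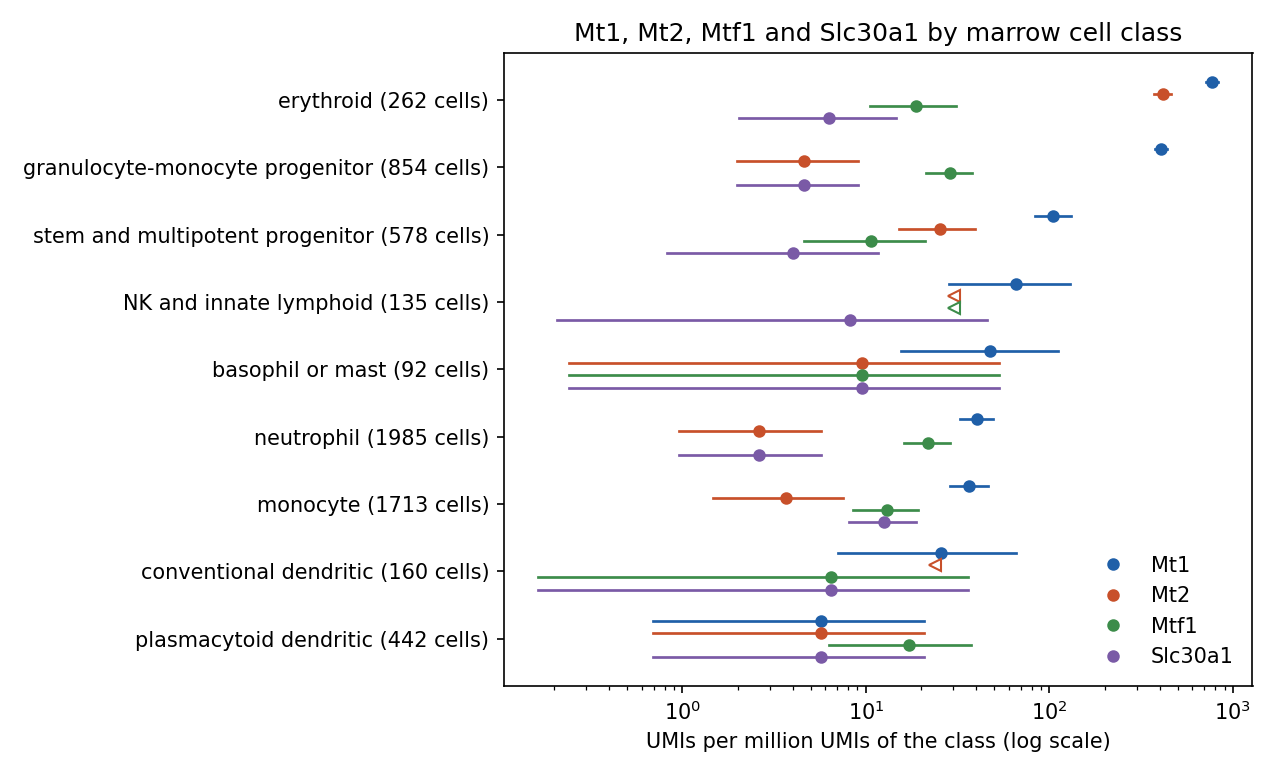
CPM (log axis) of Mt1, Mt2, Mtf1 and Slc30a1 in 9 named cell classes of the marrow library; points are class levels, lines are exact Poisson 95% intervals, and open triangles mark the upper limit of a class with no UMI. Mt1 stands apart in erythroid cells (771) and granulocyte-monocyte progenitors (408), whereas Mt2 stands apart in erythroid cells (415) and is at 4.61 in granulocyte-monocyte progenitors.

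Set against all other marrow cells, Mt2 was 72.4-fold higher in erythroid cells (415 against 5.73 CPM, log2 6.18, 5.72 to 6.67). Mt1 was 5.96-fold higher (771 against 129 CPM, log2 2.58, 2.43 to 2.72). These 2 of the 4 genes were past 2-fold, where 17.2% of the 10429 genes measured were higher by 2-fold or more and 25.1% lower. Since this contrast chose Mt2, nothing is read from the count. Mtf1 stood at 18.8 CPM in both (log2 0.00, -0.87 to 0.77). Slc30a1 stood at 6.27 CPM against 6.13 CPM (log2 0.03, -1.66 to 1.36). Both contrasts depended on which cells were called erythroid. With metal and globin genes kept in the clustering, the log2 ratio was 0.21 for Mt1 and 1.95 for Mt2.

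UMIs of a gene can also come from free RNA in the droplets, and Hbb-bs, an adult β-globin gene that the other classes should lack, gives its scale. Hbb-bs stood at 5872 CPM in erythroid cells and between 57.2 and 115 CPM in the other 8 named classes. The erythroid cells as a whole had 7.07 Mt2 UMIs per 100 Hbb-bs UMIs, but the ratio was 1012, 58.3, 1.31 and 0.0490 in bins of rising globin share. It was 5.97 in granulocyte-monocyte progenitors, 4.79 in monocytes, 3.24 in neutrophils, 7.69 in plasmacytoid dendritic cells and 31.1 in stem and multipotent progenitors. These lie inside the erythroid range, the free RNA itself was not measured, and its part in the few Mt2 UMIs of these classes was not tested. For Mt1 the ratio was 528 in granulocyte-monocyte progenitors against 50.3 in neutrophils and 47.9 in monocytes. It mixes a class's own Mt1 with any free RNA, and the part of free RNA was not tested.

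The balance of the 2 metallothioneins is described by class, and since Mt2 was chosen for its level in marrow erythroid cells, nothing is tested by setting those cells against the others. Erythroid cells had 1.86 Mt1 UMIs per Mt2 UMI (1.62 to 2.13). Granulocyte-monocyte progenitors had 708 Mt1 UMIs and 8 Mt2 UMIs. Their ratio is given as a lower bound of 44.7, the low end of its interval, because free RNA may have added to the 8. Both of their clusters were far apart in the 2 genes, with 630 against 7 UMIs and 78 against 1. Stem and multipotent progenitors lay between, at 4.16 (2.50 to 7.27). In the erythroid cells of the Car1-GFP library the ratio was 1.68 (1.65 to 1.72), inside the interval of the marrow erythroid cells. Over the 14 Car1-GFP clusters it ran from 1.40 in cluster 9 to 2.62 in cluster 2, apart from 3.86 and 4 in the smallest clusters, 12 and 13, which had 14 and 6 Mt2 UMIs. No Car1-GFP cluster came near the granulocyte-monocyte progenitors.

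**Figure D2:**
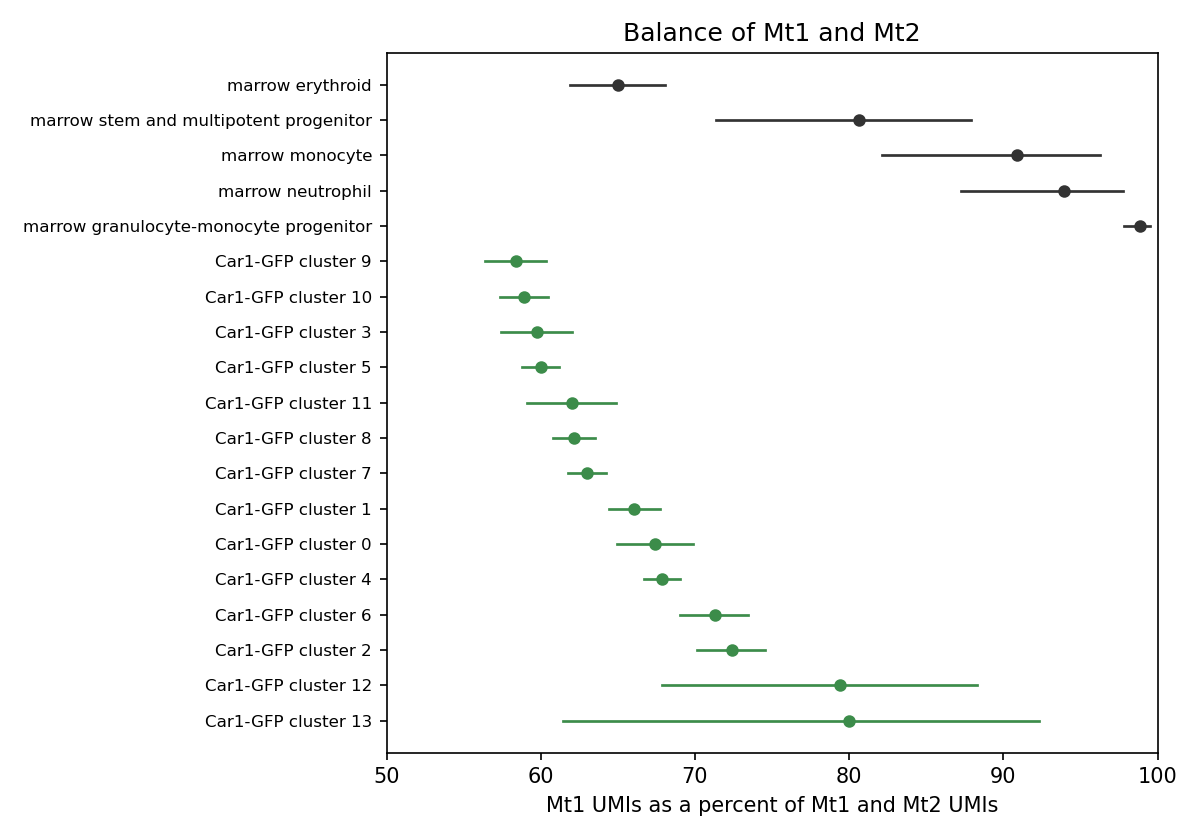
Mt1 UMIs as a percent of Mt1 and Mt2 UMIs together, on an axis from 50 to 100, in the marrow classes (black) and Car1-GFP clusters (green) with at least 20 such UMIs; lines are exact binomial 95% intervals. Marrow erythroid cells (65.0%) lie among the Car1-GFP clusters, and granulocyte-monocyte progenitors stand at 98.9%.

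Mtf1, a factor known to drive both metallothioneins, was low in every class. Its 15 erythroid UMIs are too few to tell whether it followed them. It stood at 28.8 CPM in granulocyte-monocyte progenitors (21.4 to 38.0, 50 UMIs), 21.7 CPM in neutrophils, 18.8 CPM in erythroid cells (10.5 to 31.0, 15 UMIs), 17.1 CPM in plasmacytoid dendritic cells, 13.1 CPM in monocytes and 10.6 CPM in stem and multipotent progenitors. Each of these intervals overlaps that of its neighbour in this order, which says nothing of classes further apart. Granulocyte-monocyte progenitors held 32.1% of the marrow Mtf1 UMIs (24.8% to 40.0%) with 20.9% of the library's UMIs. Monocytes held 16.0% (10.6% to 22.7%) with 23.0%. Basophil or mast cells and conventional dendritic cells had 1 Mtf1 UMI each and NK cells none. Slc30a1 had 51 UMIs in the whole marrow library, and 47.1% of them (32.9% to 61.5%) were in monocytes, at 12.6 CPM (8.05 to 18.7). It stood at 6.27 CPM in erythroid cells from 5 UMIs, 4.61 CPM in granulocyte-monocyte progenitors and 2.61 CPM in neutrophils. The erythroid interval (2.04 to 14.6) holds the values of all of these classes.

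At equal depth, similar shares of the erythroid cells in both libraries held metallothionein UMIs. With each cell thinned to 1000 UMIs, Mt1 was found in 41.5% of marrow erythroid cells (35.2% to 48.1%, with 26 shallower cells left out) and 40.4% of Car1-GFP erythroid cells (38.2% to 42.6%, none left out). Mt2 was found in 24.2% (18.8% to 30.1%) and 26.2% (24.3% to 28.3%). Without thinning, at median depths of 2545 and 17833.5 UMIs, the shares were 59.2% and 96.2% for Mt1 and 45.8% and 89.1% for Mt2. Granulocyte-monocyte progenitors thinned in the same way held Mt1 in 27.6% of cells (127 left out) and Mt2 in 0.413%, and 43.0% and 0.703% unthinned. Neutrophils gave 4.06% and 0.198% (976 left out), or 4.28% and 0.302% unthinned.

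Over all erythroid cells, Mt2 was found more often in cells that also held Mt1. In marrow erythroid cells thinned to 1000 UMIs, Mt2 was present in 38.8% of the cells with Mt1 and 13.8% of those without. In Car1-GFP erythroid cells thinned to 1000 UMIs the shares were 29.8% and 23.8%, and thinned to 4000 UMIs they were 67.2% and 48.8%. Within globin bins this did not hold throughout: in Car1-GFP cells thinned to 1000 UMIs the shares were 31.8% and 26.0% at 0.1 to 1% globin, 17.1% and 17.5% at 1 to 5%, and 0% and 15.9% at 5% or more, where 16 of 98 cells held Mt1. In marrow they were 39.7% and 22.5% under 0.1%, 41.7% and 20% at 0.1 to 1%, 33.3% and 6.45% at 1 to 5%, and 0% and 3.12% at 5% or more, the last 2 bins on 3 cells with Mt1 each. Cells of 1 library share its depth and preparation, and these shares are given with no test.

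Within marrow erythroid cells, both metallothioneins were highest in cells with the least globin. Globin share, the percent of a cell's UMIs from α- and β-globin genes, is used as a measure of erythroid maturation. Mt1 stood at 1136 CPM (1038 to 1240) in the 110 cells under 0.1% globin, 475 CPM in the 65 cells at 0.1 to 1%, 199 CPM in the 39 cells at 1 to 5% and 66.8 CPM (21.7 to 156) in the 48 cells at 5% or more. Mt2 stood at 576 CPM, 354 CPM, 70.2 CPM and 26.7 CPM along the same bins. Both genes were lower in each bin than in the one before, on 499, 94, 17 and 5 Mt1 UMIs and 253, 70, 6 and 2 Mt2 UMIs. The intervals of the last 2 bins overlap for both genes, at 116 to 319 and 21.7 to 156 CPM for Mt1. For Mt2 they were 25.8 to 153 and 3.24 to 96.5 CPM. With globin UMIs left out of the total, Mt1 in the last bin was 80.7 CPM and Mt2 32.3 CPM.

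Cells at 1% globin or more had 137 CPM of Mt1 against 930.4 CPM in cells under 1% (6.78-fold lower, log2 -2.76, -3.45 to -2.15). Mt2 had 49.9 CPM against 507 CPM (10.2-fold lower, log2 -3.34, -4.57 to -2.35). The size depended on which cells were called erythroid: it was -1.76 and -2.31 at clustering resolution 0.5, and -1.30 and -2.62 with all genes kept in the clustering. Of the 4694 genes measured in this contrast, 19.9% were lower by 2-fold or more and 7.9% higher. Mt1 was lower than all but 2.26% of them and Mt2 than all but 1.21%. Mtf1 had 2 against 13 UMIs and Slc30a1 3 against 2, too few to compare. The median depth was 3801, 2661, 1798 and 1359 UMIs along the bins, lower where metallothioneins were lower, and its part in the result was not tested. The summed level of 8 granulocyte-monocyte progenitor markers was 569, 480, 492 and 561 CPM along the bins (all 8 found, except Ctsg and Igsf6 in the last). It was 14577 CPM in the progenitors themselves. The 6 plasma cell markers were highest in the first bin, at 387, 60.6, 70.2 and 93.5 CPM with 4, 4, 3 and 2 of them found. Prdm1 and Tnfrsf17 were at 0 in every bin. The part of either list in the result was not tested.

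In the Car1-GFP library the same order was seen over a narrower range. No erythroid cell there had under 0.1% globin. Over all kept cells of that library the lowest share was 0.211% and the median 0.565%. Cluster 0, led by early genes, had a median of 0.566%. Whether globin share follows stage below 1% in this library was not tested. Mt1 stood at 688 CPM (679 to 697) in the 1592 cells at 0.1 to 1%, 306 CPM (292 to 322) in the 276 cells at 1 to 5% and 242 CPM (216 to 271) in the 98 cells at 5% or more. Mt2 stood at 406 CPM (399 to 413), 194 CPM (182 to 206) and 151 CPM (131 to 174). For both genes no 2 of the 3 intervals overlap. Mtf1 stayed level at 26.0 CPM, 25.7 CPM and 25.6 CPM, and Slc30a1 stood at 2.7 CPM, 2.75 CPM and 1.55 CPM, the last from 2 UMIs.

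**Figure D3:**
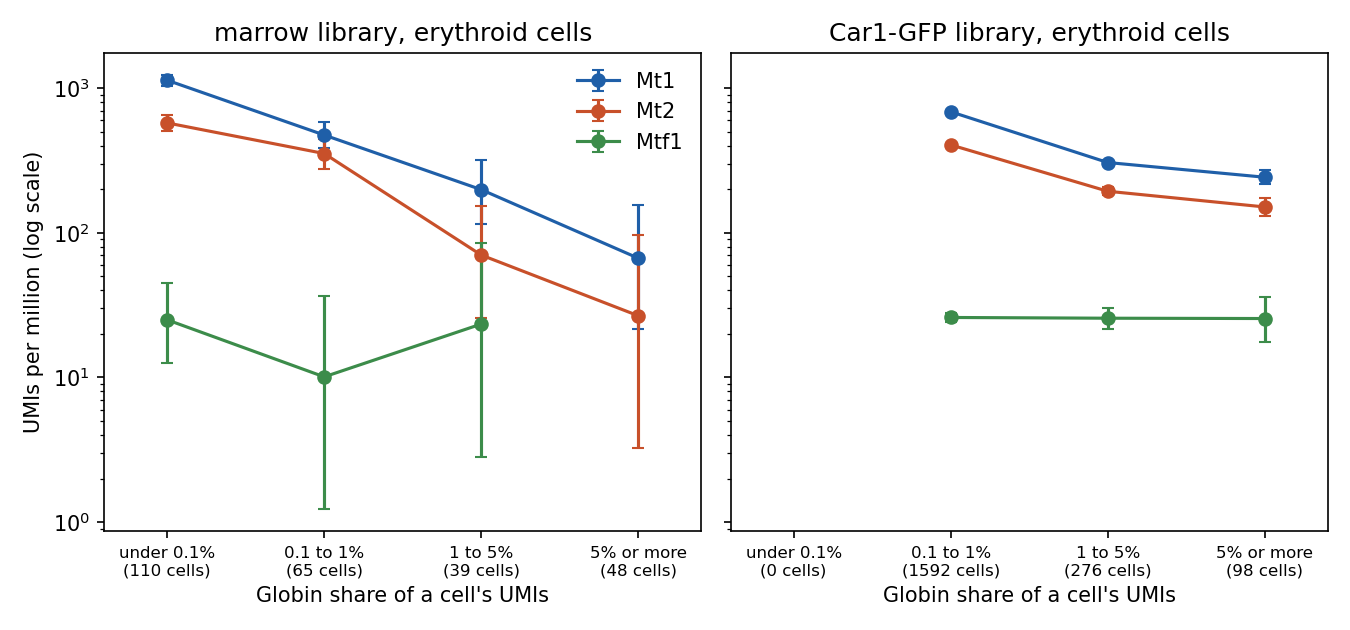
Levels of Mt1, Mt2 and Mtf1 (CPM, log axis) in erythroid cells binned by globin share, in the marrow library (left) and the Car1-GFP library (right); bars are exact Poisson 95% intervals and bins with no UMI are not drawn. Mt1 runs from 1136 to 66.8 in marrow and from 688 to 242 in Car1-GFP, while Mtf1 stays between 25.6 and 26.0 in Car1-GFP.

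Cells at 1% globin or more had 294 CPM of Mt1 against 688 CPM below 1%, a 2.34-fold lower level (log2 -1.23, -1.29 to -1.16). Mt2 was 2.19-fold lower (186 against 406 CPM, log2 -1.13, -1.21 to -1.04). In this contrast 12.7% of the 10742 measured genes were lower by 2-fold or more and 4.17% higher. Both metallothioneins were thus past 2-fold, and with TMM or DESeq2 scaling, which add 0.19 and 0.20 to every log2 value here, Mt1 stayed past it at -1.03 and -1.02 and Mt2 did not, at -0.93 and -0.92. Neither was past 2-fold when the top of 3 equal parts was set against the bottom, at -0.83 and -0.69 for parts by globin share and -0.91 and -0.60 for parts by late genes. Mtf1 (log2 -0.02, -0.26 to 0.22) and Slc30a1 (log2 -0.10, -0.94 to 0.67) were within 2-fold. Granulocyte-monocyte progenitor markers also moved, at 547, 315 and 287 CPM along the bins, with 8, 8 and 7 of the 8 markers found and Igsf6 at 0 in the last. Stem cell markers (91.3, 61.1 and 49.6 CPM, with 9, 8 and 8 of 10 found) and plasmacytoid dendritic markers (86.6, 42.2 and 34.1 CPM, with 6, 3 and 3 of 8 found) were lower too. Procr and Siglech, from the 2 lists in turn, were at 0 throughout. Median depth was 18138, 18727 and 12444.5 UMIs, and the part of these in the result was not tested.

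Over the Car1-GFP clusters, the metallothioneins were highest in clusters led neither by the earliest nor by the late genes. Clusters 7 and 5 had the highest levels, with 919 CPM (890 to 949) and 794 CPM (769 to 820) of Mt1 and 540 CPM (518 to 563) and 529.7 CPM (509 to 551) of Mt2. Mt2 was among the 10 leading genes of both clusters, as was Mt1 in cluster 7. Clusters 0 and 2, led by early genes that include Sox4 and Gata2, stood at 362 CPM and 541 CPM of Mt1 and at 175 CPM and 206 CPM of Mt2. Clusters 3 and 11, led by late genes that include Slc4a1, an anion exchanger, stood at 272 CPM and 295 CPM of Mt1 and at 183 CPM and 181 CPM of Mt2. Cluster 12, 24 cells with 50.4% globin, did not follow these in Mt1, at 385 CPM (289 to 502, 54 UMIs), and had 99.7 CPM of Mt2 (54.5 to 167). Without globin UMIs in the total it stood at 775 CPM and 201 CPM. Cluster 0 had 207 CPM of Gata2 and cluster 7 had 28.1 CPM, while Kit, the stem cell factor receptor, was at 65.9 CPM and 58.4 CPM. Kit was at 8.82 CPM in cluster 3.

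The cluster order was thus not one of globin share alone, since clusters 0 and 7 had 0.67% and 0.585% globin among their pooled UMIs. The 7 early erythroid and progenitor genes listed took 0.154% of UMIs in cluster 0, 0.0870% in cluster 7 and 0.0571% in cluster 3. Depth moved with it: the median was 28210.5 UMIs in cluster 7 and 23081 in cluster 5, but 6397.5 in cluster 0 and 17457 in cluster 3. Its part in the cluster order was not tested. Mtf1 ran from 20.3 CPM in cluster 0 to 35.4 CPM in cluster 9 among the 12 clusters with more than 1 Mtf1 UMI. Mtf1 was at 26.6 CPM in cluster 7. By level alone, its highest clusters, 9 and 10 (32.8 CPM), were not those of the metallothioneins. This order is given without intervals, and whether these clusters differ in Mtf1 was not tested.

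**Figure D4:**
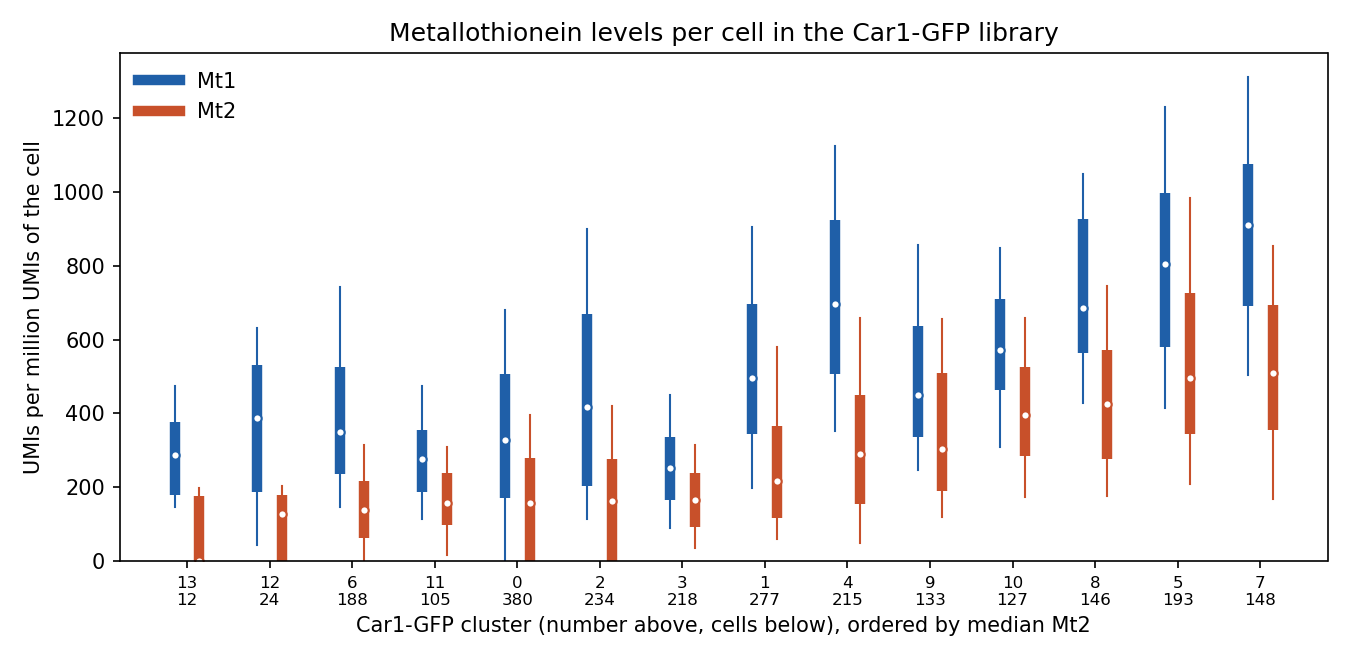
Mt1 and Mt2 levels per cell (CPM of the cell) in the 14 Car1-GFP clusters, ordered by median Mt2, with the number of cells below each; white points are medians, thick bars the middle 50% of cells and thin lines the 10th to 90th percentile. Cluster 7 has the highest medians (910 for Mt1, 509.7 for Mt2), and the clusters at the left include both early (0, 2) and late (3, 11) cells.

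Single Car1-GFP erythroid cells varied widely. The median cell had 499 CPM of Mt1, with 159 CPM at the 10th and 996 CPM at the 90th percentile, and 3.76% of cells had none. For Mt2 the median was 262 CPM, the 90th percentile 662 CPM, and 10.9% of cells had none. The 197 cells with the most Mt1 UMIs, of 1966, held 31.2% of them, and for Mt2 the share was 34.1%. Spearman's rho with globin share was -0.36 for Mt1 and -0.23 for Mt2 over 1966 cells, and -0.65 and -0.50 over the 262 marrow erythroid cells. All cells of a library share its preparation, and rho with a cell's total UMIs was 0.41 and 0.42 in Car1-GFP and 0.50 and 0.47 in marrow.

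Among the 8 genes whose pattern was most like that of Mt2 over the 13 marrow clusters were Klf1, an erythroid transcription factor, then Ermap, Tspo2, Ces2g, Rec114, Tmem56 and Atp7b, with Pearson's r of log2(CPM + 10) from 0.99 to 0.97. For Mt1 they were Polq, Ddias, Med9, B930036N10Rik, Gga2, Piga, Eif2b4 and Eif2b3, with r from 0.90 to 0.82. The lists of 8 did not share a gene, and Mt1 and Mt2 had r = 0.63 with each other. With a pseudocount of 1 CPM, 4 of the 8 genes stayed in each list. The 13 points come from 1 library, and for Mt2 a single erythroid cluster carries most of the range.

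Over the 2400 Car1-GFP cells, each metallothionein was the gene most like the other among 5945 genes (r = 0.47, and 0.26 with cells thinned to 4000 UMIs, still the first). After Mt2, the genes most like Mt1 were Atp5g1, Mif, Npm1, Hspe1, Ncl, Ppia and Set, with r between 0.40 and 0.36. After Mt1, those most like Mt2 were Hspe1, Fam132a, Atp5g1, Chchd10, Ncl, Sphk1 and Npm1, with r between 0.36 and 0.31. Mtf1 had r = 0.08 with each. These are values per cell that share depth, and the low ones are no finding.

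Between the whole libraries, Mt1 stood at 604 CPM (25831 UMIs) in Car1-GFP and 191 CPM (1586 UMIs) in marrow, 3.16-fold higher (log2 1.66, 1.59 to 1.73). Mt2 stood at 347 CPM (14843 UMIs) and 45.0 CPM (374 UMIs), 7.70-fold higher (log2 2.94, 2.80 to 3.10). Mtf1 stood at 25.6 CPM and 18.8 CPM (log2 0.45, 0.21 to 0.70). Slc30a1 was lower, at 2.62 CPM and 6.14 CPM (log2 -1.23, -1.72 to -0.72). Of the 12076 genes measured, 22.5% were higher by 2-fold or more and 32.7% lower, so a 2-fold difference was common. Mt1 was higher than 89.2% of these genes and Mt2 than 97.8%. The sort sets the makeup of each library, since 262 of 6268 marrow cells were erythroid.

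Within erythroid cells as clustered here, the libraries were close and of the 4 genes Slc30a1 alone, on 5 marrow UMIs, differed by 2-fold or more. Mt1 stood at 618 CPM in Car1-GFP and 771 CPM in marrow (log2 -0.32, -0.43 to -0.20), and Mt2 at 367 CPM and 415 CPM (log2 -0.18, -0.34 to -0.02). With TMM scaling Mt1 was level (-0.01) and Mt2 turned to 0.13, and both depended on the definition of the erythroid class. At clustering resolution 0.5 they were 0.49 and 0.71, and with all genes kept in the clustering 1.54 and 1.26, both then past 2-fold. Mtf1 was at 25.9 CPM and 18.8 CPM (log2 0.46, -0.26 to 1.31), and Slc30a1 at 2.67 CPM and 6.27 CPM from 5 marrow UMIs (log2 -1.23, -2.50 to 0.42). With TMM or DESeq2 scaling Slc30a1 was at -0.92 and -0.93, no longer past 2-fold. In this comparison 17.5% of 10879 genes were higher by 2-fold or more and 27.5% lower.

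Within the same globin bins the metallothionein log2 ratios were above 0, although 2 of the 6 intervals reach below it. The log2 ratio of Mt1 was 0.54 (0.24 to 0.84) at 0.1 to 1% globin, 0.62 (-0.06 to 1.41) at 1 to 5% and 1.86 (0.62 to 3.49) at 5% or more. That of Mt2 was 0.20 (-0.14 to 0.56), 1.47 (0.34 to 2.92) and 2.50 (0.63 to 5.55), the last against 2 marrow UMIs. Of 10589 genes at 0.1 to 1%, 28.6% were higher by 2-fold or more in Car1-GFP and 26.8% lower. The shares were 31.8% and 25.3% of 8118 genes at 1 to 5%, and 30.2% and 18.9% of 4909 genes at 5% or more, so 2-fold ratios were common. A bin does not hold like cells in both libraries, since single globin genes differed in both directions within the 0.1 to 1% bin. Hbb-bs was 4.51-fold and Hbb-bt 2.12-fold higher in Car1-GFP. Hba-a1 (1288 against 2101 CPM) and Hba-a2 (630 against 1146.5 CPM) were lower there. The globin share of the pooled UMIs in this bin was 0.558% in Car1-GFP and 0.429% in marrow. In marrow, 110 of 262 erythroid cells lay under 0.1% globin, where both metallothioneins were highest. No Car1-GFP erythroid cell did, and 1592 of 1966 lay at 0.1 to 1%. The part of this in the ratios was not tested.

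The other metallothionein genes were almost silent: Mt3, a brain-enriched form, had 1 UMI in marrow and none in Car1-GFP, and Mt4, an epithelial form, had none in either. Among the zinc transporters, few followed Mt1 and Mt2 along the globin share in Car1-GFP erythroid cells. Of the 10 zinc exporters listed, Slc30a1 included, 6 were measured (at least 20 UMIs), 1 was at least 2-fold higher in globin-rich cells and none lower, with a median log2 of 0.00 against -0.21 over all genes, of which 4.17% were higher and 12.7% lower. The importer and copper counts that follow are to be read against the same shares. The one was Slc30a10, also a manganese exporter, at 8.16 CPM against 1.41 CPM (55 and 44 UMIs, log2 2.53, 1.93 to 3.14). Slc30a9 was at 37.5 CPM against 23.6 CPM (log2 0.67).

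Of 14 zinc importers, 10 were measured, 1 was higher and 2 were lower (median -0.24). Slc39a8, which imports zinc and manganese, was higher in globin-rich cells, at 40.2 CPM against 16.7 CPM (log2 1.27, 1.05 to 1.49). Slc39a10 (3.12 against 8.31 CPM, log2 -1.42) and Slc39a11 (8.46 against 18.5 CPM, log2 -1.13) were lower, the latter not past 2-fold with TMM scaling (-0.94). Of 11 copper genes 10 were measured and 1 was lower, Atp7a, from 3 UMIs against 40 (log2 -1.53, -3.87 to 0.12). The median of the copper list was -0.12, and 0.08 with TMM scaling. Sco2, a copper chaperone of cytochrome oxidase, was at 24.04 CPM against 45.6 CPM (log2 -0.93), and the copper uptake gene Slc31a1 at a log2 of 0.48.

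**Figure D5:**
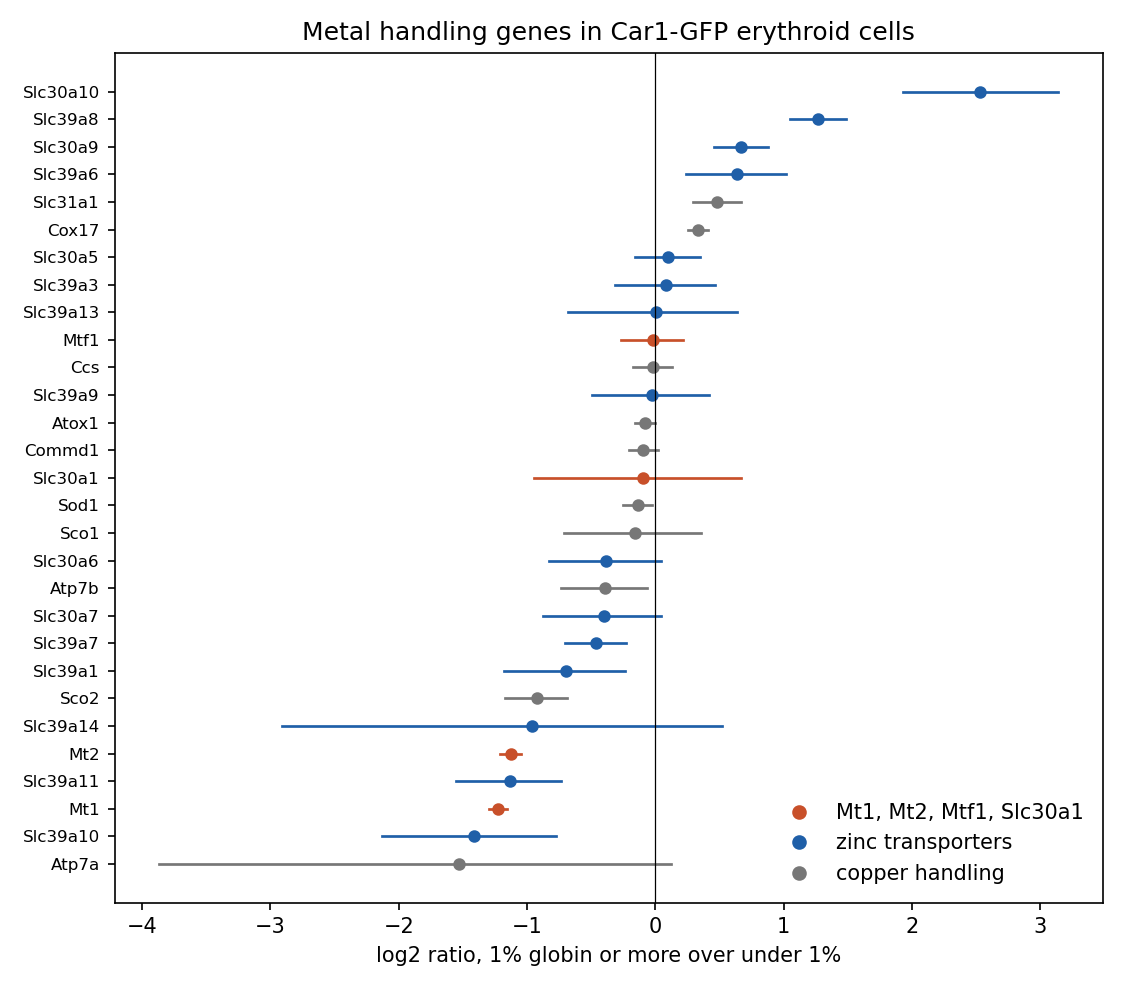
Log2 ratio of Car1-GFP erythroid cells at 1% globin or more over those under 1% for the measured metal handling genes; points are ratios of pooled levels, lines exact binomial 95% intervals. Mt1 (-1.23) and Mt2 (-1.13) have narrow intervals well below 0, Mtf1 (-0.02) and Slc30a1 (-0.10) lie at 0, and Slc30a10 (2.53) and Slc39a8 (1.27) lie above it; TMM scaling adds 0.19 to every point.

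In marrow, Atp7b, a copper-transporting ATPase, stood apart with Mt2 in the erythroid cells: 72.7 CPM (58 UMIs) against 1.2 CPM (9 UMIs) in the other cells (log2 5.92, 4.90 to 7.12). Of 11 copper genes measured, it was the one at least 2-fold higher, and Slc31a2 (log2 -3.61) and Atp7a (log2 -2.99), with 2 and 1 erythroid UMIs, were lower. Slc39a8 was at 23.8 CPM against 2.93 CPM (log2 3.02, 2.06 to 3.98), one of 2 higher among 9 measured zinc importers. In this contrast 17.2% of all genes were higher and 25.1% lower. None of 5 measured exporters was higher and Slc30a7 was lower (log2 -2.03, 3 erythroid UMIs). In Car1-GFP clusters Atp7b was at 27.4 CPM in cluster 7 and 25.8 CPM in cluster 5, and at 4.89 CPM in cluster 0 and 10.8 CPM in cluster 3.

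Genes of 2 stimuli known to raise metallothioneins were counted beside them. Of 9 glucocorticoid response genes measured along globin share in Car1-GFP erythroid cells, none was at least 2-fold higher and 4 were lower (2 with TMM scaling, which ends the calls of Klf9 and Sgk1), among them Ddit4 (1.93 against 5.78 CPM, log2 -1.58) and Klf9 (11.1 against 23.6 CPM, log2 -1.09), with a median of -0.96. Over all genes 12.7% were lower and 4.17% higher, with a median of -0.21. Of 9 genes of the dissociation stress list, 4 were lower (2 with TMM scaling, without Fosb and Hspa1a) and none higher (median -0.89), among them Egr1 (13.7 against 34.3 CPM, log2 -1.33) and Fos (11.3 against 27.0 CPM, log2 -1.26). Along globin share in Car1-GFP, both lists thus stood lower where Mt1 and Mt2 were lower. In marrow erythroid cells against other marrow cells, where Mt1 and Mt2 were higher, this was not so. There 4 of 6 stress genes measured were lower and 1 higher (median -1.79). Of 8 glucocorticoid genes, 3 were lower and 1 higher (median -0.22). Over all genes 25.1% were lower and 17.2% higher, with a median of 0.08. The part of both lists in the metallothionein levels was not tested. Between the erythroid cells of the 2 libraries, 8 of 9 stress genes were at least 2-fold higher in Car1-GFP, against 17.5% of all genes, such as Jun (121 against 8.78 CPM, log2 3.79, 2.74 to 5.10). Mt1 and Mt2 were within 2-fold there, though not with all genes kept in the clustering.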

How the data were processed

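The authors deposited UMI counts per gene and barcode, which per the submitters' processing notes came from Cell Ranger 2.1 and Seurat 2 on mm10; how barcodes were filtered is not given in the sources used here. Barcodes with over 10% mitochondrial UMIs (19 marrow, 122 Car1-GFP) and 171 marrow doublets (2.66%) were left out. Scrublet marked 9 Car1-GFP cells (0.375%), so none was removed there. Cells were clustered with scanpy 1.11.5 and Leiden at resolution 1 on 2000 variable genes, leaving out 47 metal and globin genes. CPM are pooled UMIs with exact Poisson 95% intervals; ratios have exact binomial ones, checked on simulated data. Genes with at least 20 UMIs count as measured and 2-fold differences as called. Alternatives included edgeR 4.0.16 TMM and DESeq2 1.42.0 size factors, used for scaling only.

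Named were the 4 genes, up to 4 measured genes of a list with the largest absolute log2 ratio, the 8 genes most like Mt1 and Mt2, and Hbb-bs. Clusters' leading genes, and Atp7b, Kit and Gata2 over clusters, were chosen after their values were seen. The 4 genes and the lists were chosen with earlier results of these data known. Promoters are from RefSeq and were matched by symbol for all 4 genes. No protein sequence was used here. A gene that this rule would name is not reported here.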

Additional observations from a re-analysis of the deposited data

How the results depend on the processing

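Values are log2 ratios, Mt1 first and Mt2 second where paired. Of 116 alternative values of Mt1 and Mt2, 80 stayed inside the main interval, 30 moved outside it and 6 changed sign; of 113 for Mtf1 and Slc30a1, 110 stayed inside and 3 moved. The sign changes all concern erythroid cells between libraries. They came with Leiden resolution 0.5 (0.49 and 0.71), with all genes kept in the clustering (1.54 and 1.26), and for Mt2 with TMM (0.13) and DESeq2 (0.13) scaling, under which Mt1 was -0.0066 and -0.012. Other values at resolution 0.5 were 1.77 for Mt1 in erythroid against other marrow cells and -1.76 and -2.31 along globin in marrow. With all genes kept they were 0.21 and 1.95 for erythroid against other marrow cells and -1.30 for Mt1 along globin in marrow. Weighting every cell equally gave 2.16 and 3.97 between libraries, -1.11 and -0.98 along globin in Car1-GFP, and -0.17 for Mt1 between erythroid cells. Cells of at least 1000 UMIs gave 1.31 and 2.53 between libraries and 2.26 for Mt1 in erythroid against other marrow cells. The top against the bottom of 3 equal parts of the Car1-GFP cells gave -0.83 and -0.69 by globin and, chosen after seeing the data, -0.91 and -0.60 by late genes, and all Car1-GFP cells gave -1.02 for Mt2. TMM and DESeq2 scaling gave 1.88 and 1.87 for Mt1 and 3.16 and 3.15 for Mt2 between libraries, and, chosen after seeing the data, -1.03 and -1.02 for Mt1 and -0.93 and -0.92 for Mt2 along globin in Car1-GFP, and 2.41 (TMM) for Mt1 in erythroid against other marrow cells. The cause of these shifts was not tested. Scaling moved all log2 values by 0.22 between libraries, -0.16 for erythroid against other marrow cells, 0.19 along globin in either library and 0.31 between erythroid cells (TMM). Gene counts depend on the filter: with at least 1 UMI, genes at least 2-fold lower between libraries numbered 6662 against 3946. For erythroid against other marrow cells the higher genes were 2746 with 1 UMI and 1008 with 100 UMIs against 1793, and the lower ones 5889 and 1548 against 2614. Along globin in marrow they were 1440 and 55 against 371 higher, and 4455 and 113 against 932 lower. Along globin in Car1-GFP they were 1220 with 1 UMI against 448 higher, and 3493 and 748 against 1363 lower. Between erythroid cells 4541 were higher with 1 UMI against 1899. TMM moved the split of higher against lower genes from 371 against 932 to 552 against 717 in marrow globin, from 448 against 1363 to 659 against 925 in Car1-GFP globin, and from 1899 against 2995 to 2683 against 2110 between erythroid cells. Depth limits marrow values that rest on few UMIs, above all Slc30a1. No paired analysis was possible because each group is 1 library and the labels give no replicate numbers.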
